A study of Mus musculus with 12 samples.

Results

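Rab GTPases are small proteins that mark the membranes of the cell and direct the traffic of vesicles between them. The 59 mouse genes described here are those whose symbol is Rab followed by 1 or 2 digits and at most 1 letter, out of 18193 genes with a probe set of their own on the Affymetrix mouse genome array that was used. Each gene was followed on its brightest probe set of 1 gene, and 132 probe sets of 1 gene in all carried a Rab symbol of this form. The 13 other symbols that start with Rab and a digit, such as the effectors Rab11fip1 and Rab11fip2, were left out by the rule. RNA came from B220+ cells of C57BL/6 spleens with the transgene Tg(IghelMD4)4Ccg, so the B cells of every group carried a receptor for hen egg lysozyme (HEL). All groups received anti-CD40, IL21 and HEL, the signals that follicular helper T cells and antigen would give.

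The 12 arrays formed 6 groups of 2. They were arrays labelled Jmjd2a-depleted, arrays labelled Jmjd2c-depleted and control arrays, each at day 3 and at day 1. Jmjd2a and Jmjd2c, now named Kdm4a and Kdm4c, are histone demethylases. The labels speak of siRNA in some fields and of virus with shRNA in others. Titles call the replicates biological without naming separate cultures or animals, so p-values measure only the spread between these arrays, and the number of arrays limits the precision. Day 0 was not analysed here.

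A Rab protein is switched on by a guanine nucleotide exchange factor (GEF), which loads GTP, and off by a GTPase-activating protein (GAP), which speeds its hydrolysis. Its lipid tail, added by geranylgeranyl transferase with the help of an escort protein, holds it on the membrane, and a GDP dissociation inhibitor takes it off again. On the membrane the GTP form binds effectors such as tethers and motor adaptors. In B cells this traffic carries the antigen receptor inward, loads peptides for presentation and, as the cells turn to antibody secretion, serves the path through the endoplasmic reticulum (ER) and the Golgi.

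The promoters of 4 members are shown: Rab24 and Rab19 had the largest rises in controls at day 3, and Rab6a and Rab10 were lower there on each of their 3 probe sets. Rab10 was not among the calls with the Jmjd2c label at day 3. Its fall in controls was -0.16 on the brightest probe set without day 3 control replicate 2. The sequences are from RefSeq (GRCm38.p6), each 300 bases on the gene's own strand from 250 before to 50 after the annotated start. Capitals mark matches, on either strand, to 6 motifs. These were the E-box CACGTG, the CCAAT box CCAAT, the GC box GGGCGG, the ETS site CCGGAAG, the cyclic AMP response element TGACGTCA and the AP-1 site TGANTCA.
Rab24: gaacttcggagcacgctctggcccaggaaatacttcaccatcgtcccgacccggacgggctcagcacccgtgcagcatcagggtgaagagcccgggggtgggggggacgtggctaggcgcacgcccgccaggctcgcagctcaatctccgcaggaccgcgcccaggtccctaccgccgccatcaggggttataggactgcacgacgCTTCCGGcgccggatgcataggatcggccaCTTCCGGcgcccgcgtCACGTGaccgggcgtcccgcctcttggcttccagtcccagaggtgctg
Rab19: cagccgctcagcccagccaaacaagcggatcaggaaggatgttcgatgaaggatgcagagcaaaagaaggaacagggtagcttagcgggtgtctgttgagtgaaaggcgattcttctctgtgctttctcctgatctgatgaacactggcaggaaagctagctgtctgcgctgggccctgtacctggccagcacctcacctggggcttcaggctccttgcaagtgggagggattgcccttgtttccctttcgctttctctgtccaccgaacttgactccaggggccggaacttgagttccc
Rab6a: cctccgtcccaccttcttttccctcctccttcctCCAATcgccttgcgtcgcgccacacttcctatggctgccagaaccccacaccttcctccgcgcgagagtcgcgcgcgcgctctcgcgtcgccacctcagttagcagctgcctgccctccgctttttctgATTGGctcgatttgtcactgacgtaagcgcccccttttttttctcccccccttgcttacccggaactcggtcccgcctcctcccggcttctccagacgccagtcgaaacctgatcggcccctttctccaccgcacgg
Rab10: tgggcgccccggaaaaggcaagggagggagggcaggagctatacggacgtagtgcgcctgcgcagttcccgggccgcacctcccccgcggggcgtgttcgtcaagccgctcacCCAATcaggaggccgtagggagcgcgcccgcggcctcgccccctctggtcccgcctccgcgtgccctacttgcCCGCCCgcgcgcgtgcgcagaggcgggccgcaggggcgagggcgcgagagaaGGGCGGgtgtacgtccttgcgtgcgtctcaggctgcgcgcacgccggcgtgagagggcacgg
The Rab24 window (chr13:55321931-55322230, minus strand) held 2 ETS matches and 1 E-box, and that of Rab19 (chr6:39381103-39381402, plus strand) held none of the 6 motifs. In the Rab6a window (chr7:100607336-100607635, plus strand) there were 2 CCAAT boxes, and in the Rab10 window (chr12:3309920-3310219, minus strand) 1 CCAAT box and 2 GC boxes. GC content was 68.7%, 55.7%, 62.7% and 74.7% in that order. The promoter table held 48 of the 59 members among 27025 genes. A GC box was found in 70.8% of the members' windows and in 35.9% of all windows, a CCAAT box in 47.9% and 37.9%, and an E-box in 10.4% and 7.24%. The ETS site was found in 10.4% of the members' windows and in 9.12% of all, the cyclic AMP response element in 4.17% and 1.88%, and the AP-1 site in 4.17% and 7.93%. A match is a string of letters and was not tested as a binding site.

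The targeted transcripts did not bear out the labels, so groups are called by their labels. On the Jmjd2a-labelled arrays Kdm4a differed from control by -0.12 at day 3 and 0.11 at day 1 (log2, adjusted p = 0.36 and 0.62). Kdm4c on the Jmjd2c-labelled arrays differed by 0.03 and 0.19 (adjusted p = 0.91 and 0.41). B cell markers read a mean log2 level of 9.93 to 10.82 on every array (9 of 10 measured). The 17 macrophage and monocyte markers measured moved with day and label. Their mean was 5.63 to 5.74 on labelled arrays and 6.56 to 6.64 on controls at day 3, and 7.31 to 8.39 on labelled arrays and 5.06 on both controls at day 1. Means of 8 natural killer (NK) cell markers were 5.78 to 6.0 and 7.03 to 7.04 at day 3, and 6.02 to 6.45 and 4.98 to 5.1 at day 1, in the same order. Mean levels of neutrophil, T cell and dendritic cell markers also lay above control on the labelled arrays of day 1 and below control on those of day 3, and erythroid means above control at day 1. Of the 9 B cell markers, 6 and 7 were higher with the Jmjd2a and Jmjd2c labels at day 1, and none were lower. At day 3 each label had 1 of them higher and 2 lower. In controls over time 3 were higher and 1 lower. Over time 6 were lower with the Jmjd2a label and 8 with the Jmjd2c label, and none were higher. Day 3 control replicate 2 stood apart. It had a narrower spread of values, with an interquartile range of 3.08 where the rest had 3.38 to 3.63, and a dimmer signal from 18S rRNA (10.73 where the rest had 11.73 to 12.73). The median replicate SD of the members was 0.14 in day 3 controls and 0.04 to 0.07 in the other groups.

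Between the days the Rab genes gave most of their calls in the control cells, as did probe sets at large. At day 3 the labelled arrays differed from control mostly the other way. These comparisons share the 2 day 3 control arrays, so the values of those arrays alone can give opposite signs. In controls, 16 of 59 members were higher and 10 lower at day 3 than at day 1, past a limma adjusted p of 0.05. Across all 45037 probe sets tested, 8.46% were called higher and 15.4% lower in that comparison. At day 3, 9 members were higher and 10 lower with the Jmjd2a label than in control, beside 13.7% and 7.11% of all probe sets. With the Jmjd2c label 3 were higher and 8 lower, beside 9.28% and 5.04%. At day 1 the Jmjd2a label had 2 members higher and none lower, beside 4.23% and 3.25%, and the Jmjd2c label 3 higher and 2 lower, beside 5.32% and 5.69%. These are bulk samples, so fewer cells of a type and less RNA per cell cannot be told apart, and the marker levels above moved with the same comparisons; their part in the results was not tested.

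Members were brighter than most probe sets, and brighter probe sets pass more often. Of the 59 members, 48 read at or above the median level of all probe sets (5.22 on the log2 scale), and 26 of the 27 members called in any of the 7 comparisons by label or by day were among them. Of the 48 members at that level, 25 passed in controls over time (52.1%, 16 higher and 9 lower), beside 41.8% of the 11185 genes whose brightest probe set reached it (14.5% higher and 27.3% lower). Over all levels the share was 44.1% of the 59 members, with 27.1% higher and 16.9% lower, beside 28.4% of all 18193 genes, with 11.2% higher and 17.2% lower. At day 3 with the Jmjd2a label 37.5% of the 48 members passed, beside 36.9% of the genes at that level, and with the Jmjd2c label 22.9%, beside 29.8%. At day 1 the shares were 4.17% of these members beside 16% of those genes with the Jmjd2a label, and 10.4% beside 22.8% with the Jmjd2c label. The members' share thus lay above the genes of like level in controls over time, close to them with the Jmjd2a label at day 3 and below them in the other 3 comparisons; these differences in share were not tested. The median difference of the members was 0.03 in controls over time, -0.07 and -0.02 with the Jmjd2a and Jmjd2c labels at day 3, and 0.01 and 0.03 at day 1, beside 0.04, -0.04, -0.01, -0.04 and -0.03 over all probe sets.

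The day 3 controls had 2 arrays that differed, and the counts moved with them. GEO's sample descriptions give both of these arrays the same short name, ending in 1, so their replicate numbers are those of the titles. Without day 3 control replicate 2 the control comparison over time called 16 members higher and 5 lower. At day 3 the Jmjd2a label then had 4 higher and 12 lower and the Jmjd2c label 2 higher and 13 lower, and at day 1 the calls were 6 and 9 in total. Leaving out each array in turn gave 7 to 34 calls in controls over time, 5 to 29 and 2 to 21 with the Jmjd2a and Jmjd2c labels at day 3, and 0 to 6 and 0 to 9 at day 1. The lowest counts came without day 1 control replicate 1 in controls over time, without either day 1 control at day 1 (also without Jmjd2a day 1 replicate 1 for that label), and without replicate 2 of the label's own day 3 arrays for the day 3 ones. The highest came without day 3 control replicate 1 in controls over time and at day 3, and without either day 3 control at day 1.

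**Figure D1:**
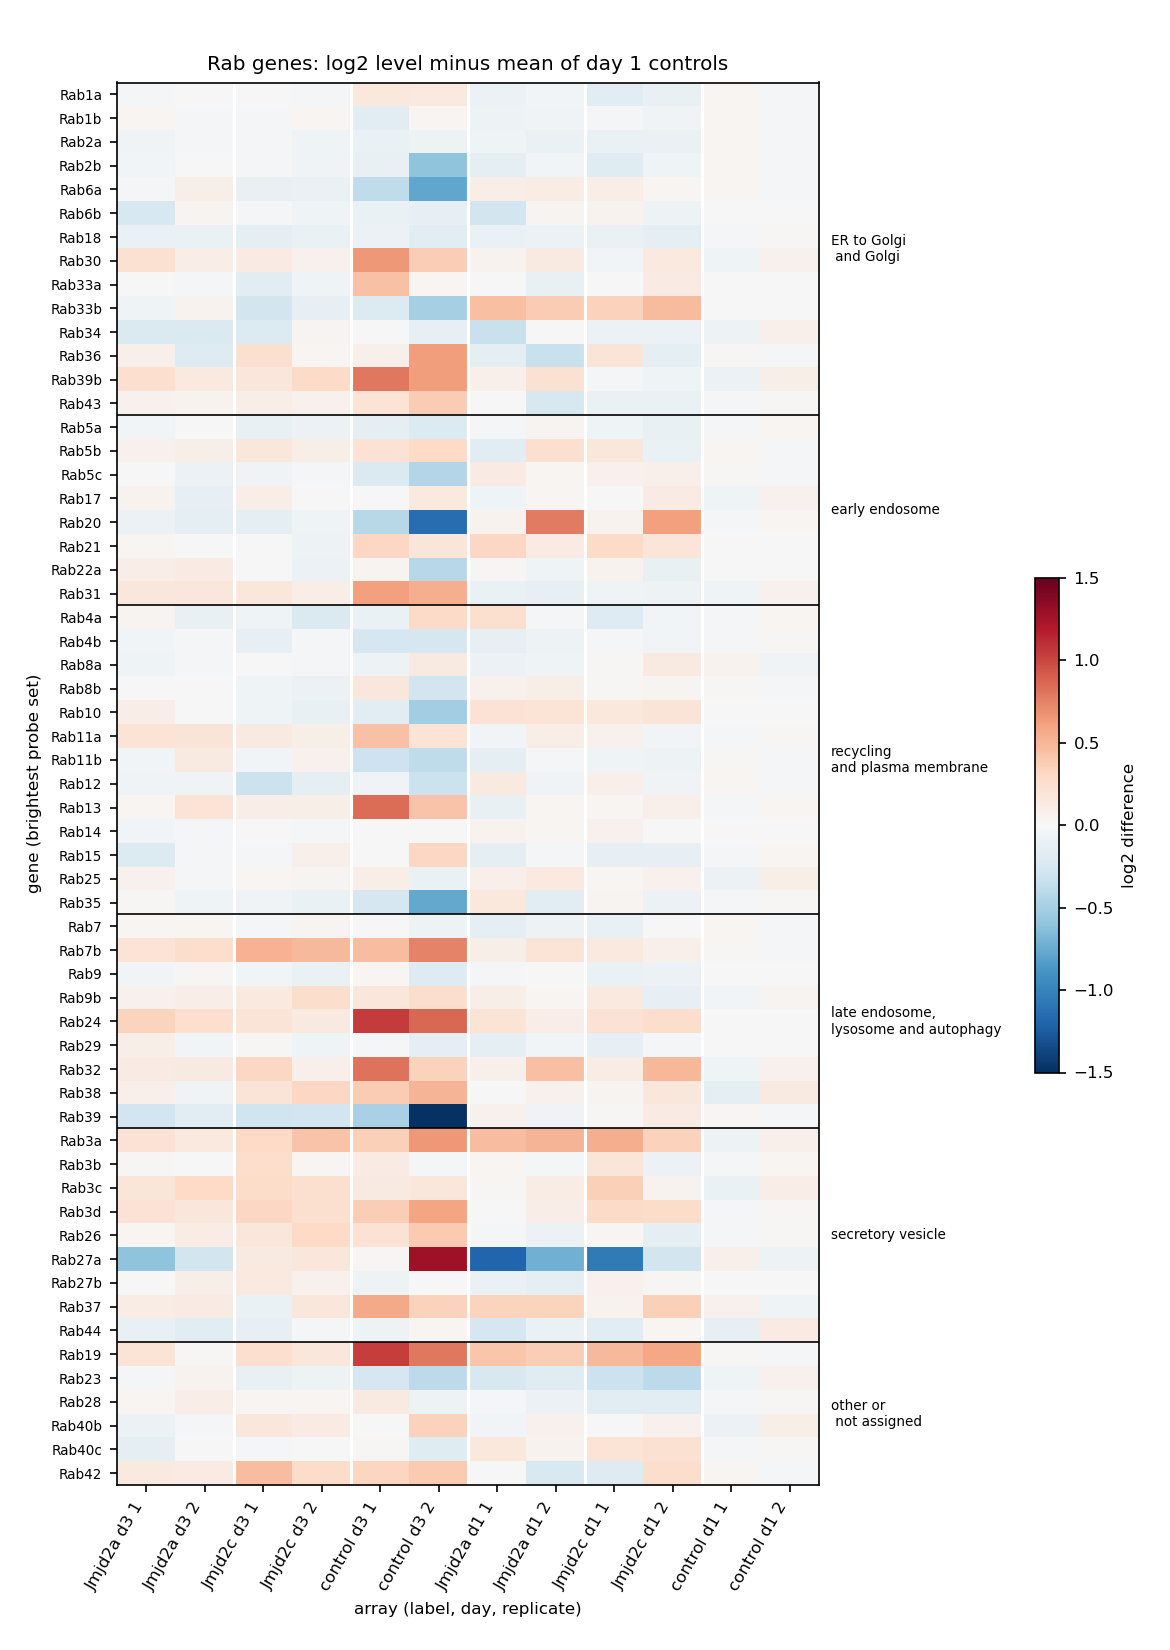
Log2 level of each of the 59 Rab genes on each of the 12 arrays, minus the mean of the 2 day 1 controls, with genes in rows by role and arrays in columns; red is higher and blue lower, and colours end at 1.5 either way. The columns of the 2 day 3 controls are red for Rab24 and Rab19 and blue for Rab6a. Rab27a (red), Rab20 and Rab39 (blue) are dark on day 3 control replicate 2 and pale or paler on replicate 1. Rab27a is also blue on the labelled arrays of day 1, and dark on replicate 1 of both labels.

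Among the 14 members of the ER to Golgi path and the Golgi, 4 rose and 2 fell in controls over time, and the Jmjd2a label at day 3 had 2 higher and 3 lower. Rab6a, which directs transport from the Golgi back to the ER, fell most of these. At day 3 Rab6a read 9.07 and 9.18 on Jmjd2a-labelled arrays, 8.98 and 9.0 on Jmjd2c-labelled arrays, and 8.71 and 8.31 in controls. At day 1 Rab6a read 9.2 and 9.21, 9.19 and 9.12, and 9.12 and 9.07 in the same groups. Both day 3 controls thus lay below all 10 other arrays. In controls Rab6a fell by 0.58 (log2, SE 0.11, adjusted p = 0.0022), and at day 3 it was higher by 0.61 with the Jmjd2a label (SE 0.11, adjusted p = 0.002) and by 0.48 with the Jmjd2c label (SE 0.11, adjusted p = 0.011). Without day 3 control replicate 2 these were -0.38, 0.41 and 0.28, and the Jmjd2c call ended without either Jmjd2c day 3 array (0.46 to 0.49). Its promoter above holds the 2 CCAAT boxes.

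Rab39b and Rab30 went the other way. Rab39b is a Golgi and neuronal Rab whose human gene is linked to intellectual disability. At day 3 Rab39b read 5.46 and 5.35 on Jmjd2a-labelled arrays, 5.38 and 5.49 on Jmjd2c-labelled arrays, and 6.0 and 5.83 in controls. At day 1 Rab39b read 5.28 and 5.43, 5.19 and 5.14, and 5.12 and 5.29. Its mean level of 5.41 lay little above the median of all probe sets (5.22). Both day 3 controls were above all other arrays. It rose by 0.71 in controls (SE 0.12, adjusted p = 0.0012) and was lower by label at day 3, at -0.51 and -0.48 (SE 0.12, adjusted p = 0.012 and 0.021). The first label call ended without Jmjd2a day 3 replicate 2 (-0.45) and the second without either Jmjd2c day 3 array (-0.54 to -0.42). Rab30, a Golgi Rab, read 9.09 and 8.96, 8.99 and 8.93, and 9.52 and 9.23 in the same groups at day 3. At day 1 Rab30 read 8.92 and 9.0, 8.82 and 9.01, and 8.8 and 8.93, so the day 3 controls were again highest on this probe set. The difference was 0.51 in controls over time (SE 0.11, adjusted p = 0.004), -0.35 with the Jmjd2a label (SE 0.11, adjusted p = 0.038) and -0.41 with the Jmjd2c label (SE 0.11, adjusted p = 0.022). With the mean of its probe sets the first and second were -0.02 and 0.02, of the opposite sign. Its calls ended without day 1 control replicate 1 over time (0.45), and without day 3 control replicate 1 or either Jmjd2c day 3 array for the Jmjd2c label (-0.44 to -0.27). For the Jmjd2a label the Rab30 call held only when the array left out was day 3 control replicate 2 or 1 of the labelled day 1 arrays, and ended without any other array (-0.41 to -0.2).

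Rab1a, the Rab of transport from the ER to the Golgi, moved little, and its calls rest on 1 probe set. With the mean of its probe sets the differences were 0.04 and 0.03 by label at day 3, 0.02 with the Jmjd2c label at day 1 and -0.08 in controls over time, each of the opposite sign to the call. On the brightest probe set Rab1a read at day 3 11.81 and 11.82 on Jmjd2a-labelled arrays, 11.82 and 11.81 on Jmjd2c-labelled arrays, and 11.98 and 11.97 in controls. At day 1 Rab1a read 11.74 and 11.78, 11.66 and 11.71, and 11.85 and 11.8. It rose by 0.15 in controls (SE 0.04, adjusted p = 0.017) and was lower by 0.16 with either label at day 3 (log2 -0.16, SE 0.04, adjusted p = 0.013 for Jmjd2a and 0.018 for Jmjd2c). At day 1 it was -0.15 with the Jmjd2c label (SE 0.04, adjusted p = 0.038). The calls ended without day 1 control replicate 2 over time (0.12), and without either day 3 array of the label concerned (-0.17 to -0.15 and -0.17 to -0.16). The day 1 call held only when the array left out was a day 3 control or a Jmjd2a day 1 array, and was -0.17 to -0.12 where it ended. Rab43, which acts in transport to the Golgi, rose in controls by 0.29 (SE 0.1, adjusted p = 0.05, just under the threshold before rounding). At day 3 Rab43 read 8.46 and 8.44, 8.49 and 8.46, and 8.59 and 8.77. At day 1 Rab43 read 8.4 and 8.15, 8.29 and 8.29, and 8.37 and 8.41. That call held only when the array left out was day 3 control replicate 1 or a Jmjd2a day 1 array, and was 0.2 to 0.31 where it ended.

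Rab33b, a Golgi Rab that binds the autophagy protein Atg16l1, differed by label at day 1. At day 3 Rab33b read 7.9 and 8.01 on Jmjd2a-labelled arrays, 7.68 and 7.84 on Jmjd2c-labelled arrays, and 7.76 and 7.46 in controls. At day 1 Rab33b read 8.41 and 8.34, 8.31 and 8.43, and 7.95 and 7.97. All 4 labelled arrays of day 1 were above the other 8 arrays. The day 1 difference was 0.42 with the Jmjd2a label and 0.41 with the Jmjd2c label (SE 0.11, adjusted p = 0.043 and 0.035), and with the Jmjd2c label it fell by 0.61 at day 3 relative to day 1 (SE 0.11, adjusted p = 0.0052). In controls it fell by 0.34 over time (adjusted p = 0.044), and at day 3 it was 0.34 higher with the Jmjd2a label (adjusted p = 0.048). The Jmjd2a call of day 1 ended without any array but a day 3 control (0.38 to 0.45), and the Jmjd2c one without any array but a day 3 control or a Jmjd2a day 1 array (0.35 to 0.48). The fall with the Jmjd2c label ended without Jmjd2c day 3 replicate 1 or day 1 replicate 2 (-0.55 to -0.53). Both day 3 control calls ended without any array but day 3 control replicate 1, at -0.35 to -0.19 over time and 0.19 to 0.4 by label.

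Of the 8 members of the early endosome, 2 rose and 2 fell in controls over time, and each label at day 3 had 1 higher and 2 lower. Rab31, a relative of Rab22a that acts between the trans-Golgi and endosomes, read at day 3 8.11 and 8.12 on Jmjd2a-labelled arrays, 8.12 and 8.05 on Jmjd2c-labelled arrays, and 8.56 and 8.49 in controls. At day 1 Rab31 read 7.85 and 7.82, 7.88 and 7.87, and 7.88 and 8.01. The day 3 controls were the highest arrays, the labelled arrays of day 3 were next, and the day 1 arrays were lowest. It rose by 0.58 in controls (SE 0.09, adjusted p = 0.00037) and was at -0.41 and -0.44 with the Jmjd2a and Jmjd2c labels at day 3 (SE 0.09, adjusted p = 0.0048 and 0.004); the Jmjd2c call ended without Jmjd2c day 3 replicate 2 (-0.41). Rab21, which carries integrins inward, read at day 3 10.52 and 10.49, 10.5 and 10.42, and 10.81 and 10.68. At day 1 Rab21 read 10.8 and 10.62, 10.78 and 10.68, and 10.49 and 10.5. Day 3 controls and day 1 labelled arrays were high and the rest low. The difference was 0.25 in controls over time (SE 0.07, adjusted p = 0.023), -0.24 and -0.28 by label at day 3 (SE 0.07, adjusted p = 0.035 and 0.019), and -0.27 over time with the Jmjd2c label (SE 0.07, adjusted p = 0.038). At day 1 the Jmjd2c difference of 0.24 was just short of the test (adjusted p = 0.055).

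The early endosome members that fell in controls were Rab5c and Rab20. Rab5c is one of the Rab5 proteins that fuse early endosomes. At day 3 Rab5c read 10.18 and 10.1 on Jmjd2a-labelled arrays, 10.13 and 10.16 on Jmjd2c-labelled arrays, and 9.97 and 9.75 in controls. At day 1 Rab5c read 10.31 and 10.21, 10.25 and 10.26, and 10.2 and 10.17. Both day 3 controls were the lowest of the 12 arrays. It fell by 0.33 in controls (SE 0.08, adjusted p = 0.0079) and was 0.28 and 0.29 higher by label at day 3 (SE 0.08, adjusted p = 0.023 and 0.025). Without day 3 control replicate 2 these were -0.21, 0.16 and 0.17, and both label calls ended; they also ended without either array of the label at day 3 (up to 0.32 and 0.3), and the control call without day 1 control replicate 1 (-0.31). Rab20, which acts on phagosomes and endosomes, read at day 3 5.25 and 5.19, 5.19 and 5.28, and 4.92 and 4.2. At day 1 Rab20 read 5.39 and 6.12, 5.39 and 5.96, and 5.31 and 5.37, with replicate 2 of both labels high. The fall of 0.78 in controls (SE 0.26, adjusted p = 0.049) was -0.43 without day 3 control replicate 2, and the call held only when the array left out was day 3 control replicate 1 or a labelled day 1 array (-0.81 to -0.43 where it ended). Rab5a was just short of the test in controls, at -0.16 (adjusted p = 0.071). For Rab21 the calls ended without day 3 control replicate 1 or either day 1 control over time (0.19 to 0.26) and without either Jmjd2c day 3 array for that label at day 3 (-0.32 to -0.25). Its Jmjd2a call held only when the array left out was day 3 control replicate 2 or a labelled day 1 array (-0.25 to -0.17 where it ended), and its fall with the Jmjd2c label only for a day 3 control or a Jmjd2a day 1 array (-0.32 to -0.22).

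Of the 13 members of recycling endosomes and the plasma membrane, 2 rose and 4 fell in controls over time, and the Jmjd2a label at day 3 had 4 higher and 1 lower. Rab13, known from tight junctions of epithelia, rose. At day 3 Rab13 read 5.75 and 5.92 on Jmjd2a-labelled arrays, 5.82 and 5.8 on Jmjd2c-labelled arrays, and 6.55 and 6.14 in controls. At day 1 Rab13 read 5.6 and 5.75, 5.75 and 5.79, and 5.69 and 5.74. Both day 3 controls lay above the other 10 arrays. The difference was 0.63 in controls (SE 0.14, adjusted p = 0.0056), -0.5 with the Jmjd2a label and -0.53 with the Jmjd2c label at day 3 (SE 0.14, adjusted p = 0.023 for each). The calls ended without day 1 control replicate 1 over time (0.61), and by label without day 3 control replicate 1 or either day 3 array of that label (-0.59 to -0.3 and -0.54 to -0.33). Rab11b, of the recycling endosome, fell. At day 3 Rab11b read 8.41 and 8.59, 8.41 and 8.52, and 8.15 and 8.07. At day 1 Rab11b read 8.31 and 8.44, 8.39 and 8.38, and 8.47 and 8.44. It fell by 0.34 in controls (SE 0.09, adjusted p = 0.017) and was 0.39 and 0.35 higher by label at day 3 (SE 0.09, adjusted p = 0.011 and 0.024). The calls ended without either day 1 control over time (-0.36 to -0.33), without Jmjd2a day 3 replicate 2 (0.3) and without either Jmjd2c day 3 array (0.29 to 0.41).

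Rab35 and Rab10 were low in day 3 controls mainly on replicate 2. Rab35, of fast recycling to the plasma membrane, read at day 3 8.6 and 8.52 on Jmjd2a-labelled arrays, 8.53 and 8.48 on Jmjd2c-labelled arrays, and 8.33 and 7.82 in controls. At day 1 Rab35 read 8.74 and 8.43, 8.63 and 8.5, and 8.57 and 8.6. It fell by 0.51 in controls (SE 0.15, adjusted p = 0.023) and was 0.49 higher with the Jmjd2a label at day 3 (SE 0.15, adjusted p = 0.034). Without day 3 control replicate 2 the values were -0.26 and 0.24 and both calls ended, and without replicate 1 they were -0.77 and 0.74. The control call also ended without either day 1 control (-0.53 to -0.26 in all), and the label call without any other array but a labelled day 1 array (up to 0.53). Rab10, which carries glucose transporters and toll-like receptors to the surface, read at day 3 10.6 and 10.51, 10.43 and 10.39, and 10.34 and 9.98. At day 1 Rab10 read 10.72 and 10.7, 10.66 and 10.69, and 10.5 and 10.5. It fell by 0.34 in controls (SE 0.09, adjusted p = 0.019) and was 0.39 higher with the Jmjd2a label (SE 0.09, adjusted p = 0.01). Over time the call ended without day 3 control replicate 2 (-0.16) or either day 1 control and was -0.52 without day 3 control replicate 1, and the label call ended without Jmjd2a day 3 replicate 1 (0.35) and was 0.21 without day 3 control replicate 2.

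The remaining calls among recycling Rabs were Rab4b and Rab11a. Rab4b, of fast recycling, read 9.08 on both day 3 controls and 9.21 to 9.35 on the other 10 arrays. It fell by 0.25 in controls (adjusted p = 0.019) and was 0.21 higher with the Jmjd2a label at day 3 (adjusted p = 0.046). The first call ended without either day 1 control (-0.27 to -0.24), and the second held only when the array left out was a day 3 control or a Jmjd2a day 1 array (0.21 to 0.22 where it ended). Rab11a, the close relative of Rab11b, moved the other way, with a rise of 0.32 in controls (SE 0.08, adjusted p = 0.011) that ended without either day 1 control (0.31 to 0.34) and was 0.20 without day 3 control replicate 1; with the mean of its probe sets it was -0.01. Rab8a, Rab8b, Rab12, Rab14, Rab15, Rab25 and Rab4a passed in none of the 7 comparisons.

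Of the 9 members of late endosomes, lysosomes and autophagy, 4 rose and 1 fell in controls over time. Rab24, a Rab without typical GTPase activity that is found on autophagosomes, gave the smallest p-value of all members. At day 3 Rab24 read 9.46 and 9.38 on Jmjd2a-labelled arrays, 9.32 and 9.26 on Jmjd2c-labelled arrays, and 10.18 and 9.99 in controls. At day 1 Rab24 read 9.33 and 9.23, 9.35 and 9.39, and 9.12 and 9.14. The day 3 controls were highest, the day 1 controls lowest, and the 8 labelled arrays lay between them. Rab24 rose by 0.95 in controls (SE 0.08, 95% interval 0.78 to 1.12, adjusted p = 5.1e-06). At day 3 it was at -0.66 with the Jmjd2a label (SE 0.08, -0.84 to -0.49, adjusted p = 0.00013) and at -0.79 with the Jmjd2c label (SE 0.08, -0.97 to -0.62, adjusted p = 4.3e-05). No single array ended these calls.

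Rab7b, which moves cargo from endosomes back to the trans-Golgi, rose in controls. At day 3 Rab7b read 5.47 and 5.52 on Jmjd2a-labelled arrays, 5.78 and 5.75 on Jmjd2c-labelled arrays, and 5.72 and 6.0 in controls. At day 1 Rab7b read 5.35 and 5.46, 5.41 and 5.34, and 5.28 and 5.24. Its mean level of 5.53 lay little above the median of all probe sets (5.22). The Jmjd2c-labelled and control arrays of day 3 overlapped, and the Jmjd2a-labelled ones lay below both. Its rise of 0.6 in controls (SE 0.12, adjusted p = 0.0032) held without each array, and with the Jmjd2a label at day 3 it was just short of the test at -0.36 (adjusted p = 0.052). Rab32 and Rab38 serve melanosomes and other organelles related to lysosomes. At day 3 Rab32 read 5.52 and 5.54, 5.71 and 5.48, and 6.22 and 5.74. At day 1 Rab32 read 5.48 and 5.85, 5.51 and 5.9, and 5.33 and 5.47, with replicate 2 of both labels high. Its rise of 0.58 (SE 0.19, adjusted p = 0.043) was 0.34 without day 3 control replicate 1, and the call held only when the array left out was day 3 control replicate 2 or a labelled day 1 array (0.34 to 0.65 where it ended). Rab38 rose by 0.45 (SE 0.13, adjusted p = 0.021) and was at -0.44 with the Jmjd2a label at day 3 (adjusted p = 0.028). The first ended without day 3 control replicate 2 or day 1 control replicate 1 (0.32 to 0.39), and the second without day 3 control replicate 2 or either Jmjd2a day 3 array (-0.5 to -0.38).

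Rab39, a Rab of phagosomes and late endosomes, was the single member below the median level that passed a test. At day 3 Rab39 read 5.14 and 5.26 on Jmjd2a-labelled arrays, 5.13 and 5.14 on Jmjd2c-labelled arrays, and 4.94 and 3.94 in controls. At day 1 Rab39 read 5.49 and 5.37, 5.44 and 5.55, and 5.45 and 5.4. The fall of 0.98 in controls (SE 0.23, adjusted p = 0.0093) was -0.48 without day 3 control replicate 2 and -1.48 without replicate 1, and the call ended without day 1 control replicate 1 (-0.95). With the Jmjd2a label at day 3 the difference was 0.76 (SE 0.23, adjusted p = 0.039), 1.26 without day 3 control replicate 1 and 0.26 without replicate 2. That call ended without any array but day 3 control replicate 1 (0.26 to 0.82). Rab7, the main late endosome Rab, passed in none of the 7 comparisons and read 10.42 to 10.61 on the 12 arrays, and Rab9, Rab9b and Rab29 passed in none either.

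**Figure D2:**
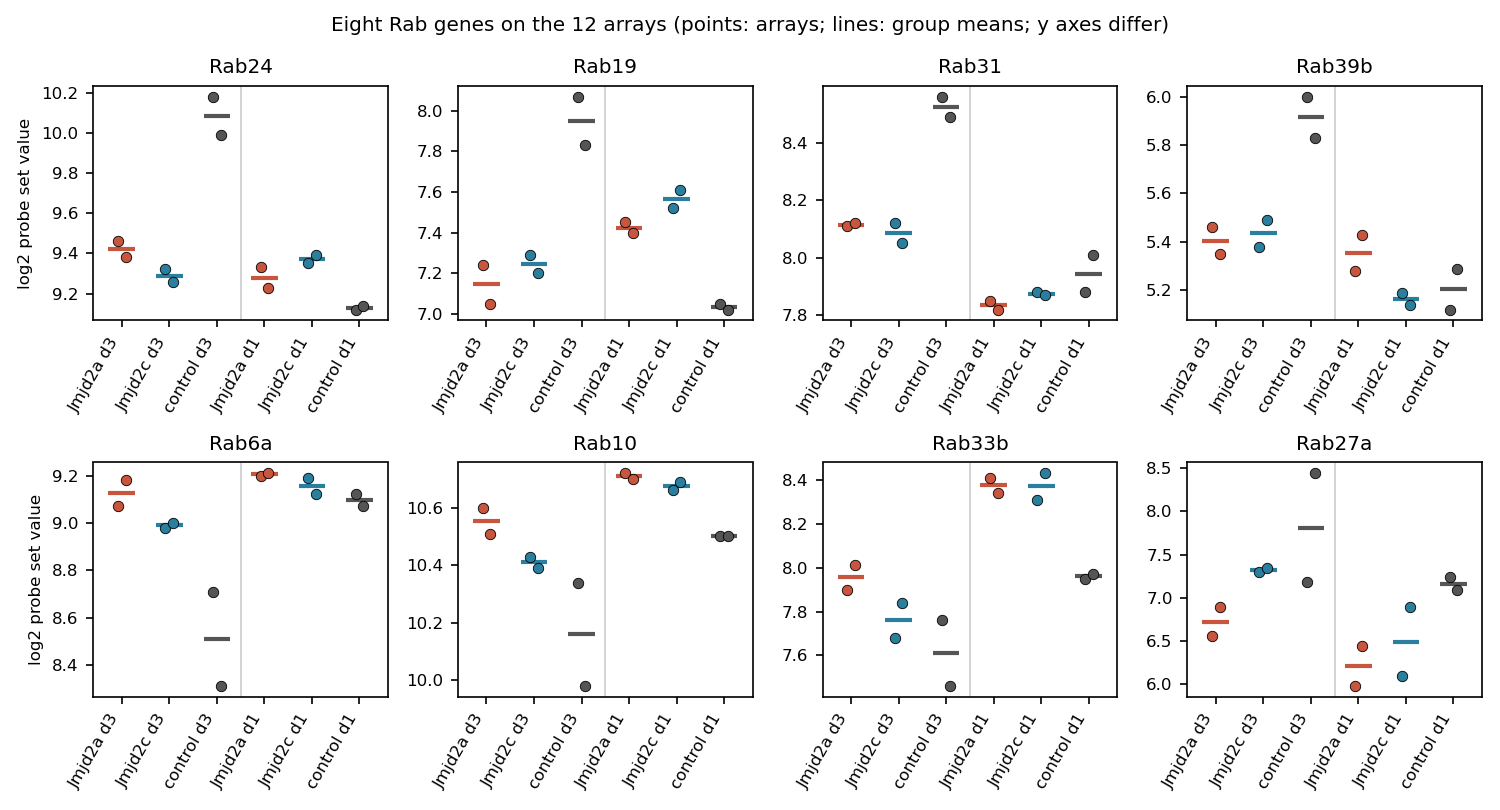
Log2 level of 8 Rab genes on each array, 1 panel a gene, with a point for each array and a bar at each group mean, in the order Jmjd2a label, Jmjd2c label and control within each day, day 3 first. Rab24 and Rab19 are highest in the 2 day 3 controls and Rab6a is lowest there, while Rab27a spreads from 7.18 to 8.44 between those controls.

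Of the 9 members of secretory vesicles, 3 rose and none fell in controls over time. Rab3a, known from synaptic vesicles, read above both day 1 controls on every other array. At day 3 Rab3a read 8.44 and 8.37 on Jmjd2a-labelled arrays, 8.52 and 8.65 on Jmjd2c-labelled arrays, and 8.58 and 8.88 in controls. At day 1 Rab3a read 8.69 and 8.74, 8.77 and 8.57, and 8.15 and 8.3. It rose by 0.51 in controls (SE 0.11, adjusted p = 0.006), and at day 1 it was 0.49 and 0.45 higher with the Jmjd2a and Jmjd2c labels (SE 0.11, adjusted p = 0.02 and 0.023). These calls ended without day 1 control replicate 1 over time (0.43), without any array of the Jmjd2a or control pairs of day 1 (0.42 to 0.57), and without either day 1 control or Jmjd2c day 1 replicate 1 (0.35 to 0.53). Rab3d, of exocrine granules, rose by 0.48 in controls (SE 0.11, adjusted p = 0.0093), a call that ended without day 1 control replicate 1 (0.46).

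Rab37, a Rab of mast cell granules, and Rab27a, which brings lytic granules and exosomes to the plasma membrane, depended on single arrays. At day 3 Rab37 read 5.66 and 5.67 on Jmjd2a-labelled arrays, 5.45 and 5.72 on Jmjd2c-labelled arrays, and 6.12 and 5.89 in controls. At day 1 Rab37 read 5.88 and 5.88, 5.6 and 5.91, and 5.61 and 5.49. Its rise of 0.46 in controls (SE 0.14, adjusted p = 0.035) ended without day 3 control replicate 1 (0.34), either day 1 control or either Jmjd2a day 3 array (up to 0.52), and with the Jmjd2c label at day 3 it was just short at -0.42 (adjusted p = 0.073). At day 3 Rab27a read 6.56 and 6.89, 7.3 and 7.34, and 7.18 and 8.44. At day 1 Rab27a read 5.98 and 6.44, 6.1 and 6.89, and 7.24 and 7.09. The Jmjd2c-labelled arrays lay between the 2 controls of day 3, and the Jmjd2a-labelled ones below both. The Jmjd2a difference at day 3 of -1.09 (SE 0.34, adjusted p = 0.041) was the largest of any member by size. It was -0.46 without day 3 control replicate 2 and -1.72 without replicate 1, and the call held only when the array left out was that replicate 1 or a labelled day 1 array. At day 1 Rab27a differed by -0.95 and -0.67 by label (SE 0.34, adjusted p = 0.13 and 0.29), and both labels' arrays lay below both controls.

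The 6 members with other or unassigned roles held the strongest label pattern besides Rab24. Rab19, a little studied Rab of the Golgi and the cell surface, was the most changed of these. At day 3 Rab19 read 7.24 and 7.05 on Jmjd2a-labelled arrays, 7.29 and 7.2 on Jmjd2c-labelled arrays, and 8.07 and 7.83 in controls. At day 1 Rab19 read 7.45 and 7.4, 7.52 and 7.61, and 7.05 and 7.02. The order of labelled and control arrays was thus reversed between the days, without overlap on either day. Rab19 rose by 0.92 in controls (SE 0.11, 95% interval 0.68 to 1.16, adjusted p = 8.2e-05) and was at -0.81 and -0.71 with the Jmjd2a and Jmjd2c labels at day 3 (SE 0.11, adjusted p = 0.00031 and 0.00095). At day 1 it was 0.53 higher with the Jmjd2c label (SE 0.11, adjusted p = 0.009) and 0.39 with the Jmjd2a label, just short of the test (adjusted p = 0.053). No single array ended the day 3 and control calls, and the day 1 call ended without either day 1 control or Jmjd2c day 1 replicate 2 (0.49 to 0.55).

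Rab23, a negative regulator of Hedgehog signalling in the mouse embryo, had the opposite signs. At day 3 Rab23 read 6.98 and 7.06 on Jmjd2a-labelled arrays, 6.89 and 6.93 on Jmjd2c-labelled arrays, and 6.75 and 6.61 in controls. At day 1 Rab23 read 6.77 and 6.82, 6.68 and 6.61, and 6.94 and 7.07. It fell by 0.32 in controls (SE 0.1, adjusted p = 0.041), was 0.34 higher with the Jmjd2a label at day 3 (SE 0.1, adjusted p = 0.039), and was at -0.36 with the Jmjd2c label at day 1 (SE 0.1, adjusted p = 0.048). These calls rested on most arrays: over time the call held only when the array left out was day 3 control replicate 1 (-0.39 to -0.25 where it ended), the Jmjd2a call only for that array or a Jmjd2a day 1 array (0.27 to 0.38), and the day 1 call only for a day 3 control (-0.42 to -0.29). Rab28, Rab40b, Rab40c and Rab42 passed in none of the 7 comparisons.

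**Figure D3:**
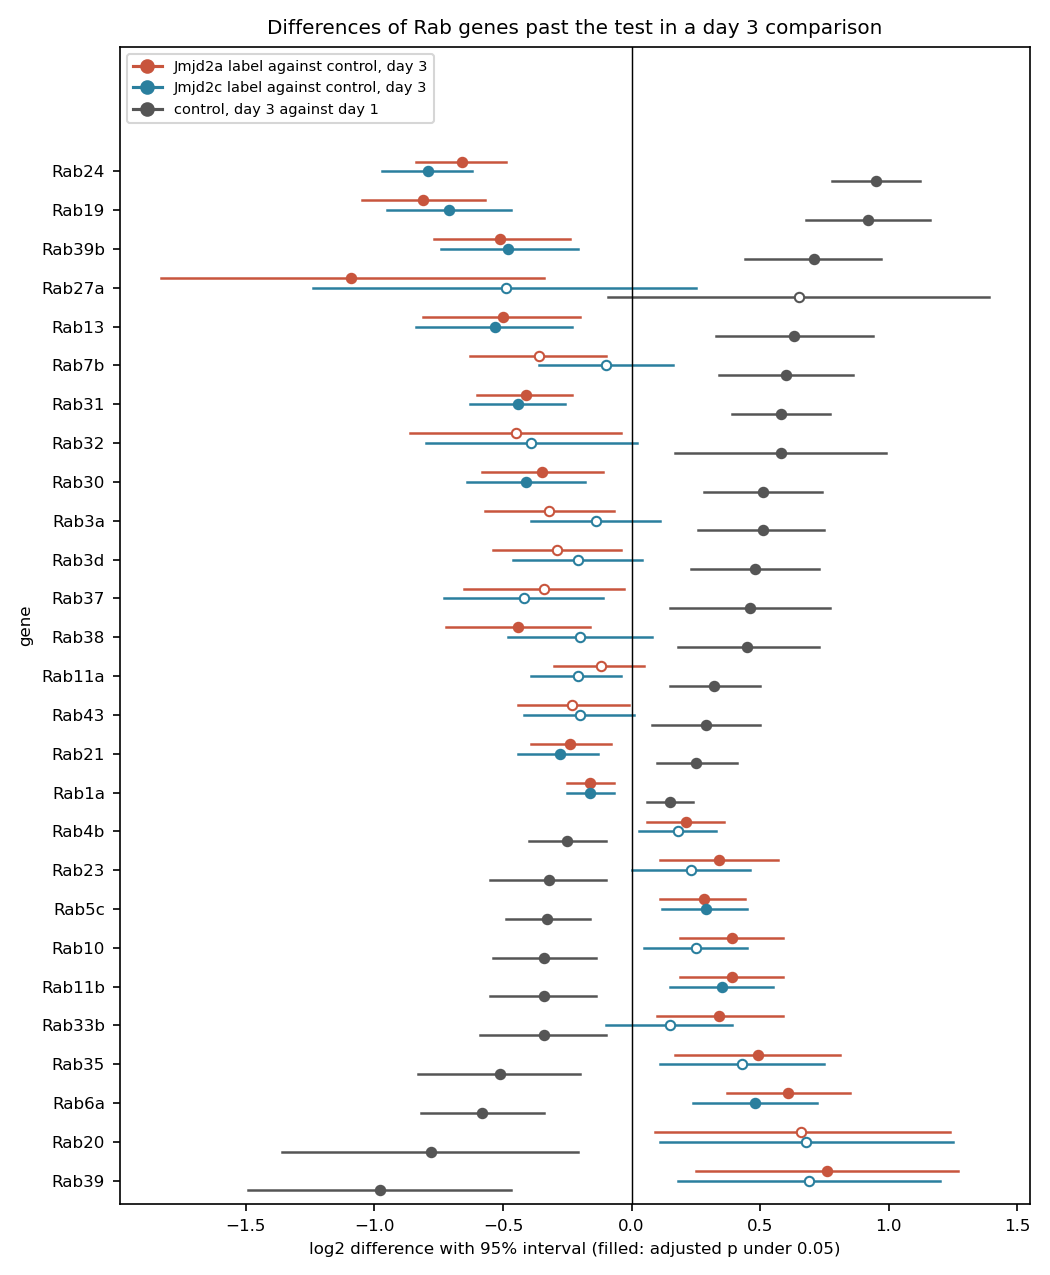
Log2 difference of each called Rab gene in 3 comparisons, with 95% intervals from the limma fit: Jmjd2a label against control at day 3, Jmjd2c label against control at day 3, and day 3 against day 1 in controls. The 3 comparisons share the day 3 control arrays; Rab24 stands at -0.66 and -0.79 by label and at 0.95 in controls, and Rab6a at 0.61, 0.48 and -0.58.

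All 3 day 3 comparisons use the same pair of day 3 control arrays, so their values are set side by side and not taken as separate evidence. The 8 members that rose in controls and were lower with both labels at day 3 were Rab13, Rab19, Rab1a, Rab21, Rab24, Rab30, Rab31 and Rab39b, and the 3 with the opposite signs were Rab11b, Rab5c and Rab6a. The shares of all genes with these joint signs are not given here, so the counts are not read as a trait of Rab genes. Comparisons that leave out the day 3 control means gave few calls. Their tests still used a spread fitted to all 12 arrays. That spread includes the day 3 controls, whose replicates differed more (median SD of members 0.14, beside 0.04 to 0.07 elsewhere). A shared spread can make tests without those controls stricter and tests against them more lenient. Its part in the counts was not tested. From day 1 to day 3, none of the 59 members passed with the Jmjd2a label, with 7 at an unadjusted p under 0.05, beside 2.26% of all probe sets called higher and 3.35% lower. With the Jmjd2c label the Rab21 and Rab33b falls were the 2 calls, beside 3.27% higher and 5.36% lower. Without day 3 control replicate 2 in the fit these comparisons had 6 and 11 calls. The labelled arrays of day 3 were also set against the controls of day 1: by limma 0 members passed with the Jmjd2a label (2 at an unadjusted p under 0.05) and 0 with the Jmjd2c label (4), where 0.167% and 0.160% of all probe sets passed. Members' differences there ran from -0.44 to 0.29 and from -0.29 to 0.5.

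The Jmjd2a and Jmjd2c labels were not told apart by any Rab gene. By limma, 0 members passed between the labels at day 3, with 1 at an unadjusted p under 0.05, and 0 at day 1, with 0 at that p. Of all probe sets 0% passed on either day. The day 1 test took no account of the deviations that same-numbered arrays of the labels shared (correlation 0.392). The differences, Jmjd2a minus Jmjd2c, ran from -0.59 (Rab27a) to 0.2 at day 3 and from -0.28 to 0.24 at day 1.

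Whether the label difference changed between the days was tested as the day 3 difference minus the day 1 difference. With the Jmjd2a label 4 members had a positive and 6 a negative change (16.9% of members, beside 18.3% of all probe sets in either direction), and with the Jmjd2c label 2 and 4 (10.2%, beside 17.5%). Taken on brightest probe sets, 23.3% and 22.8% of all genes passed with the Jmjd2a and Jmjd2c labels. Among genes at or above the median level the shares were 35.3% and 34.8%. The members' shares were thus below those of genes, and these differences in share were not tested. Rab19 changed by -1.21 and -1.24 with the Jmjd2a and Jmjd2c labels (SE 0.16, adjusted p = 0.00022 and 0.00017), and Rab24 by -0.81 and -1.03 (SE 0.11, adjusted p = 0.00035 and 6.2e-05). No single array ended these 4 calls. Rab3a changed by -0.81 and -0.59 (adjusted p = 0.0035 and 0.022) and Rab21 by -0.46 and -0.52 (adjusted p = 0.0072 and 0.0032). Rab23 changed by 0.55 and 0.59 (adjusted p = 0.022 and 0.015) and Rab11b by 0.47 and 0.42 (adjusted p = 0.024 and 0.045). With the mean of its probe sets Rab11b changed by 0.12 and -0.02, and its other 2 probe sets differed by label by 0.1 to 0.36 at day 3 and by 0.37 to 0.47 at day 1, none past the test. With the Jmjd2a label alone past the test were Rab37 (-0.67), Rab39b (-0.66), Rab6a (0.5) and Rab4b (0.31), with adjusted p = 0.02 to 0.043. With the Jmjd2a label, calls ended for Rab11b without Jmjd2a day 3 replicate 2, day 1 replicate 1 or either day 1 control (0.38 to 0.49), and for Rab23 without either Jmjd2a day 3 array, day 1 replicate 1 or day 1 control replicate 2 (0.48 to 0.59). They ended for Rab37 without any array of the Jmjd2a groups or the day 1 controls (-0.73 to -0.61), and for Rab39b without replicate 2 of either Jmjd2a group or day 1 control replicate 1 (-0.6 to -0.57). For Rab4b (0.29 to 0.34) and Rab6a (0.45 to 0.56, and 0.30 without day 3 control replicate 2) they ended without any array but a day 3 control. With the Jmjd2c label, calls ended for Rab3a without replicate 1 of either Jmjd2c group or day 1 control replicate 1 (-0.53 to -0.49), and for Rab23 without replicate 2 of either Jmjd2c group or day 1 control replicate 2 (0.52 to 0.57). The Rab11b call with that label held only when the array left out was a day 3 control or a Jmjd2a day 1 array (0.36 to 0.48 where it ended).

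Other probe sets of the same genes gave a partial check. In controls over time, 11 of the 26 called members had another probe set at or above the median level, 14 such probe sets in all. Of these, 5 passed with the same sign, 9 had the same sign and none passed with the opposite sign. Rab24's second probe set rose by 1.07 in controls and was at -0.78 and -0.81 with the Jmjd2a and Jmjd2c labels at day 3. Both other Rab6a probe sets fell in controls (-0.67 and -0.76) and were higher with the Jmjd2a label (0.75 and 0.81) and the Jmjd2c label (0.54 and 0.63). The 2 further Rab10 probe sets fell by 0.5 and 0.66 in controls and were 0.42 and 0.64 higher with the Jmjd2a label. Probe sets with the opposite sign that did not pass in controls included 1 each of Rab30 (-0.55), Rab1a (-0.21), Rab11a (-0.35) and Rab43 (-0.11), so the rises of these genes rest on 1 probe set each. Rab19, Rab13, Rab33b, Rab35, Rab5c, Rab4b and Rab39 had 1 probe set, and the brightest Rab3a probe set is of a kind that can bind related transcripts, its other one reading 0.18 in controls over time.

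**Figure D4:**
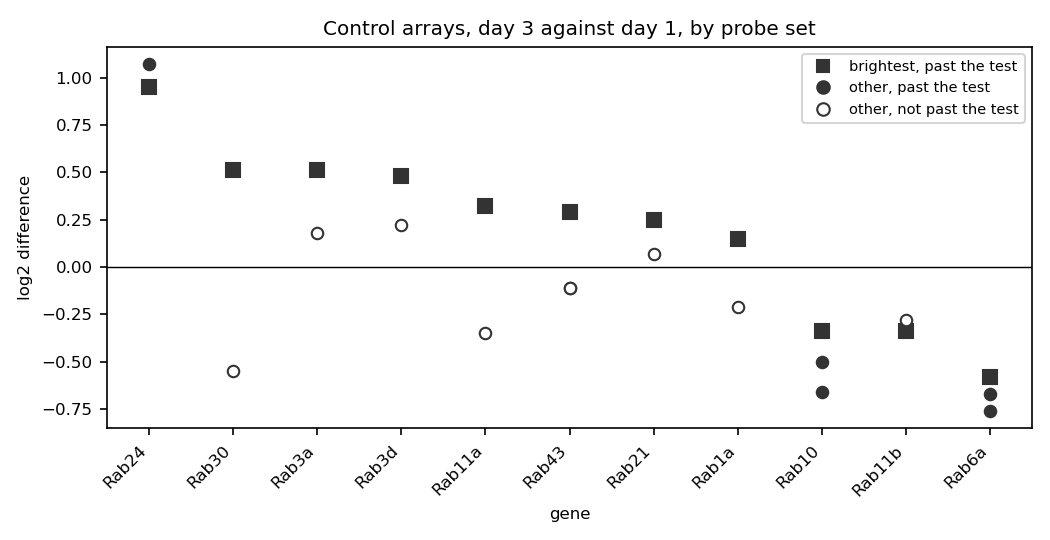
Log2 difference of controls at day 3 against day 1 for the probe sets of called Rab genes with more than 1 probe set at or above the median level, with squares for the brightest probe set, filled circles for others past the test and open circles for others not past it. The points of Rab24, Rab6a and Rab10 lie on the same side of 0, and those of Rab30, Rab1a, Rab11a and Rab43 lie on both sides.

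Across the 6 group means, as a description over points that share arrays and days, the members most like Rab24 were Rab30 and Rab13 (Pearson r = 0.98 each) and Rab39b (0.91). Those most like Rab19 were Rab32 (0.99), Rab37 (0.9) and Rab24 (0.86), and those most like Rab6a were Rab35 (0.98), Rab5c and Rab39 (0.97 each). Rab10 was most like Rab20 (0.97), then Rab5c and Rab6a (0.95 each).

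Among the genes that load, switch and read Rab proteins, Usp6nl and Chml fell in controls over time by more than any Rab gene. Each gene was taken on its brightest probe set, so the shares of these lists stand beside those of all 18193 genes: 28.4% in controls over time, 25% and 19.3% with the Jmjd2a and Jmjd2c labels at day 3, and 10.3% and 14.9% at day 1. Among genes at or above the median level the shares were 41.8%, 36.9%, 29.8%, 16% and 22.8% in that order. How many list genes reached that level is not given here. By direction, 11.2% of all 18193 genes were higher and 17.2% lower in controls over time. With the Jmjd2a label at day 3 these shares were 16% and 9.04%, and with the Jmjd2c label 12.1% and 7.21%. At day 1 they were 5.72% and 4.6% with the Jmjd2a label, and 7.57% and 7.35% with the Jmjd2c label. Shares of the lists were not tested against these. In controls over time 40.5% of GEFs, 18.9% of GAPs, 34% of effectors and 71.4% of the 7 prenylation and recycling genes passed. At day 3 the shares were 37.8%, 18.9%, 19.1% and 57.1% in that order with the Jmjd2a label, and with the Jmjd2c label 21.6%, 13.5%, 14.9% and 42.9%. At day 1 they were 16.2%, 8.11%, 12.8% and 28.6% with the Jmjd2a label and 16.2%, 16.2%, 17% and 42.9% with the Jmjd2c label.

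Of 37 GEFs measured, 5 rose and 10 fell in controls, and with the Jmjd2a label at day 3 10 were higher and 4 lower. With the Jmjd2c label at day 3 the counts were 4 and 4, and at day 1 each label had 6 higher and none lower. Dennd4a, a GEF for Rab10, rose by 0.82 in controls (adjusted p = 6.8e-06), and Dennd3, a GEF for Rab12, by 0.84 (adjusted p = 7.4e-05), while Rab3ip, a GEF for Rab8, fell by 0.85 (adjusted p = 0.00028). At day 1 Dennd2d was 1.25 and 1.45 higher and Dennd3 0.8 and 1.05 higher with the Jmjd2a and Jmjd2c labels (adjusted p = 4.5e-05 to 0.0027). Of 37 GAPs, 4 rose and 3 fell in controls, 3 were higher and 4 lower with the Jmjd2a label at day 3, and 2 and 3 with the Jmjd2c label. Usp6nl, a GAP for Rab5, fell by 1.74 in controls (adjusted p = 4.9e-07) and was 1.59 and 1.54 higher by label at day 3 (adjusted p = 2.6e-06 and 3.8e-06). Tbc1d10c, a lymphocyte GAP that also inhibits calcineurin, was 1.34 and 1.55 higher by label at day 1 (adjusted p = 0.00017 and 3.9e-05).

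Of 7 genes for prenylation and recycling of Rab proteins, 2 rose and 3 fell in controls, 3 were higher and 1 lower with the Jmjd2a label at day 3, and 2 and 1 with the Jmjd2c label. Chml, a Rab escort protein, fell by 1.77 in controls (adjusted p = 2.3e-05) and was 1.58 and 1.39 higher by label at day 3 (adjusted p = 8.7e-05 and 0.00025). Rabggtb, the catalytic subunit of Rab geranylgeranyl transferase, fell by 0.48 in controls (adjusted p = 7.6e-05), and Gdi2, a GDP dissociation inhibitor, rose by 0.3 (adjusted p = 7.9e-05). At day 1 Rabac1, a receptor for prenylated Rabs, was 0.71 and 0.92 higher by label (adjusted p = 0.0012 and 0.00013). Of 47 effectors, 5 rose and 11 fell in controls, 5 were higher and 4 lower with the Jmjd2a label at day 3, and 3 and 4 with the Jmjd2c label. Among those that rose were Rilpl2 (0.51, adjusted p = 3.3e-06), Lrrk2 (0.65, adjusted p = 2.1e-05), a kinase that phosphorylates Rab proteins, and Mical1 (0.79, adjusted p = 0.0001), which oxidises actin. At day 1 Fyco1, which links Rab7 to kinesin, was 1.01 and 1.07 higher by label (adjusted p = 0.0037 and 0.0019). Markers of several cell types were also higher there with the Jmjd2a and Jmjd2c labels. Past the test were 14 and 15 of 17 macrophage and monocyte markers and 6 and 7 of 9 B cell markers. So were 4 and 5 of 8 NK cell markers and 4 and 4 of 11 T cell markers. None of these sets had a marker called lower, and their part in the Fyco1 difference was not tested. The first Fyco1 call ended without day 1 control replicate 2; leaving out any 1 array ended no other call given here for the genes of these 4 lists. At day 1, 2 GAPs were higher and 1 lower with the Jmjd2a label, and 5 and 1 with the Jmjd2c label. For effectors those counts were 4 and 2, and 5 and 3, and for prenylation and recycling 1 and 1, and 2 and 1. Median differences in controls over time were -0.06 for GEFs, 0.0 for GAPs, -0.19 for prenylation and recycling and 0.05 for effectors, beside 0.04 over all probe sets. With the Jmjd2a label at day 3 they were 0.1, 0.13, 0.3 and 0.0 in that order, beside -0.04.

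The 32 members that passed in none of the 7 comparisons included several of the best-known Rabs of each compartment. Rab2a of the Golgi read 10.52 to 10.65 on the 12 arrays, Rab5a of early endosomes 10.02 to 10.27, Rab14 of recycling endosomes 11.55 to 11.66 and Rab18, of lipid droplets and the ER, 10.16 to 10.35. A difference that missed the test is not shown to be absent. The shares of all genes that passed in none, or in any, of the 7 comparisons are not given here. The count of 32 is thus not read as a trait of Rab genes. Of the 11 members below the median level 10 were among these 32, and at such signal a change is hard to see.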

How the data were processed

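RNA of 12 samples was measured on Affymetrix arrays, as biotinylated cRNA per the labels' protocols. The values are the authors' deposited log2 levels per probe set, and no source used here states how they were normalized. Array medians lay close together, and no further normalization was applied. The 64 control probe sets were left out, which left 45037 of 45101. Annotation named 1 gene for 34945 probe sets, several for 932 and none for 9160. With limma 3.58.1 in R 4.3.3, 6 group means were fitted to all 12 arrays (6 residual degrees of freedom, prior 5.85, eBayes with an intensity trend). Contrasts were tested two-sided, with Benjamini-Hochberg adjustment over all 45037 probe sets and a threshold of 0.05, and the same code was first tested on simulated data. Probe sets at a mean of 5.22 or above, the median over all, were taken as bright. Promoters came from RefSeq; Python 3.11.15 and matplotlib 3.10.9 made summaries and figures.

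Members, roles, motifs and lists were chosen with earlier results of these data known. Per-array values are given for the 8 members of largest difference past the test in each comparison and for those at the threshold, and from each pathway list up to 4 genes of smallest p. Alternatives were quantile normalization, median centring, leaving out dim probe sets, no trend, array weights, the mean of a gene's probe sets, a replicate block, arrays of 1 day only, a threshold of 0.10 and leaving out each array.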

Additional observations from a re-analysis of the deposited data

Results flagged for a closer look

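For some members the label difference was not the same on both days, by limma's test of the day 3 difference minus the day 1 difference. They were 16.9% of members with the Jmjd2a label and 10.2% with the Jmjd2c label, beside 23.3% and 22.8% of all genes. Rab19, a little studied Rab, changed by -1.21 with the Jmjd2a label and -1.24 with the Jmjd2c label (adjusted p = 0.00022 and 0.00017), with labelled arrays below both controls at day 3 and above both at day 1. Rab24 of autophagosomes changed by -0.81 and -1.03 (adjusted p = 0.00035 and 6.2e-05). Rab3a of synaptic vesicles changed by -0.81 and -0.59 (adjusted p = 0.0035 and 0.022), and Rab21 of integrin uptake by -0.46 and -0.52 (adjusted p = 0.0072 and 0.0032). Rab23 changed the other way, by 0.55 and 0.59 (adjusted p = 0.022 and 0.015), as did Rab11b of recycling endosomes, by 0.47 and 0.42 (adjusted p = 0.024 and 0.045), although with the mean of its probe sets the values were 0.12 and -0.02. Past the test with the Jmjd2a label, and not with the Jmjd2c label, were Rab37 at -0.67 (adjusted p = 0.036), Rab39b at -0.66 (adjusted p = 0.02), Rab6a at 0.5 (adjusted p = 0.043) and Rab4b at 0.31 (adjusted p = 0.042); the difference between the labels in this change was not tested. Of 17 macrophage and monocyte markers, 16 changed by a negative amount past the test with each label. So did 8 of 8 NK cell, 6 of 9 B cell and 5 of 11 T cell markers with each label. Of the T cell markers 1 changed the other way. Dendritic cell markers had 3 of 9 negative and neutrophil markers 0 of 8. The part of all these markers in the results was not tested.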

How the results depend on the processing

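Of 81 gene calls, 15 kept their direction and their side of the threshold in every alternative: Rab24 and Rab19 at day 3 with either label, in controls over time and in both tests of the change in label difference, Rab6a with the Jmjd2a label at day 3 and in controls, Rab39b and Rab7b in controls, and Rab3a in the Jmjd2a change. Of 683 alternative gene values, 482 stayed on their side, 193 were no longer past the threshold and 8 reversed. All 8 reversed with the mean of a gene's probe sets: Rab1a at 0.02 (Jmjd2c, day 1), 0.04 and 0.03 (Jmjd2a and Jmjd2c, day 3) and -0.08 (controls), Rab30 at 0.02 (Jmjd2a, day 3) and -0.02 (controls), Rab11a at -0.01 (controls) and Rab11b at -0.02 (Jmjd2c change). These genes have probe sets of opposite sign. Counts of called members moved by over 1.5 times as follows; the cause was not tested. With the Jmjd2a label at day 1 the count of 2 was 1 with median centring or no trend, 6 with array weights, 4 with gene means or a threshold of 0.10, and 5 with arrays of the same day. With the Jmjd2c label at day 1 the 5 were 3 with no trend and 8 with weights. At day 3 the 19 Jmjd2a calls were 11 with no trend, 6 with weights and 8 with same-day arrays, and the 11 Jmjd2c calls were 4 and 5 with weights and same-day arrays. The 26 control calls were 14 with weights. Over time, the Jmjd2a count of 0 was 1 with quantile normalization or gene means, 2 without dim probe sets or at 0.10, and 4 with weights. The Jmjd2c count of 2 was 6 with quantile normalization, 4 without dim probe sets or at 0.10, 1 with no trend or gene means, and 8 with weights. The 6 calls of the Jmjd2c change were 10 with quantile normalization, 11 without dim probe sets and 12 at 0.10. Day 3 labelled arrays against day 1 controls gave 1 (Jmjd2a) and 2 (Jmjd2c) calls with weights.

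Leaving out each array gave 0 to 6 and 0 to 9 calls by label (Jmjd2a, Jmjd2c) at day 1, 5 to 29 and 2 to 21 at day 3, 7 to 34 in controls over time, and 0 to 6 and 0 to 11 over time with the labels. The change in label difference had 4 to 20 and 4 to 16, label against label 0 on both days, and day 3 labels against day 1 controls 0 and 0 to 1. A group left with 1 array was assumed to vary like the others. The main fit did not pair samples by replicate number. Deviations of same-numbered arrays correlated over 0.1 between 1 pair of groups (0.392, the labels at day 1). Neutrophil marker means of those Jmjd2a and Jmjd2c arrays were 5.12 and 5.19 on replicate 1, and 6.93 and 7.5 on replicate 2. Those 2 groups thus shared a difference between replicates that the main fit did not take into account. With a replicate block the counts were 4 and 5 at day 1, 18 and 12 at day 3 and 21 in controls. Dim probe sets and 2 arrays a group limit what can be seen.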
